A study of Mus musculus with 20 samples.

Results

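Protease inhibitors of mucosa and leukocytes were examined in whole tracheas of wild-type mice and of mice without Myd88, an adaptor protein of Toll-like receptor and interleukin-1 receptor signalling, before and after chemical injury of the epithelium. The set held 8 genes, Slpi, Wfdc2, Serpinb2, Serpina3n, Serpina3g, Stfa1, Stfa2 and Stfa3. Its members were all non-control probes that carried one of these names on the array, which gave 12 of 41174 probes. Of these, 10 were among the 26063 probes that passed a filter on dim signal, being well above background in no fewer than 10 of 20 arrays, and were tested. Probes for Stfa2 and the dimmer of the 2 Slpi probes were not tested.

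These inhibitors block enzymes that damage or remodel tissue. Slpi and Wfdc2 are small secreted proteins with whey acidic protein domains, and Slpi inhibits neutrophil elastase and cathepsin G on mucosal surfaces. Serpins trap serine proteases by a large change of shape: Serpina3n is a secreted acute phase protein, Serpina3g is made by leukocytes, and Serpinb2 is the intracellular plasminogen activator inhibitor of macrophages and epithelium. Stefins are small intracellular inhibitors of cysteine cathepsins, and in mice the Stfa genes are known from neutrophils and epidermis.

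There were 4 groups of 5 arrays. Wild-type mice were C57/Bl6 and Myd88KO mice, back-crossed to that strain, lacked the gene in every cell. Per the study's methods, knockout mice were bred with each other and wild-type mice came from a separate colony. Differences due to the missing gene and to colony therefore cannot be told apart. Per the labels all mice were 4 months old. Injured mice received 2% polidocanol, a detergent that strips the tracheal epithelium, 3 days before collection, and uninjured mice of both genotypes served as controls without it. Each array was hybridised with Cy3-labelled RNA of 1 sample, and values are log2 intensities relative to the 75th percentile of the array. The labels number the samples without naming animals, and the study's methods call them biological replicates. A lower value in whole trachea cannot separate fewer cells of a type from less RNA per cell.

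Across the arrays, 57.5% to 67.8% of spots were well above background. The Myd88 probe was 1.94 to 2.28 in uninjured and 2.36 to 2.80 in injured wild-type tracheas, and 1.60 to 2.04 and 1.54 to 2.09 in the matching Myd88KO tracheas, so it still gave a signal in knockout mice. The position of this probe relative to the deleted part was not known, and it does not check the labels by itself. One array stood apart. In uninjured wild-type replicate 3, 115 tested probes were more than 8-fold above every other array of its group, against at most 6 for the others. The mean of 12 tested squamous epithelium markers, such as loricrin and small proline-rich proteins, was 5.16 on that array and 0.75 to 1.28 on the other arrays of its group. All 14 markers on the array design were well above background there and 11 on each of the others, and their summed intensity, in units of the 75th percentile, was 1090 against 128 to 183. Results that rest on it are given with and without it, except correlations between single probes, which were computed only over all arrays. In injured Myd88KO replicate 5, 34 probes were as far above and 9 as far below its group, and in injured wild-type replicate 2, 45 were as far below.

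Sequence just upstream of Serpina3n, Serpina3g and Slpi is shown so that the shared and private parts can be seen beside the values. The first 2 passed the threshold in injured wild-type tracheas, as given below, and Slpi in no main comparison. All 8 members had an entry among RefSeq promoters of the GRCm38.p6 build, and 250 bases before the transcription start are printed 5′ to 3′ on the strand of the gene. Capitals mark a match on either strand to TTCNNNGAA, a STAT-type motif, in Serpina3g, to an NF-kB-type motif, GGGA and CC with any 4 bases between them, in Serpina3n, and to TTGCNNAA, a C/EBP-type motif, in Slpi.
Serpina3n, chr12:104406458-104406707, plus strand: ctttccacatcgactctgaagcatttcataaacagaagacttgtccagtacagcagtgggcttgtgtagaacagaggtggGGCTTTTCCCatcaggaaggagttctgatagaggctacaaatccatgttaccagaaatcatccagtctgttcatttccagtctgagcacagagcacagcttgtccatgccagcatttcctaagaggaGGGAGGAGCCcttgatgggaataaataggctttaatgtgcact
Serpina3g, chr12:104235897-104236146, plus strand: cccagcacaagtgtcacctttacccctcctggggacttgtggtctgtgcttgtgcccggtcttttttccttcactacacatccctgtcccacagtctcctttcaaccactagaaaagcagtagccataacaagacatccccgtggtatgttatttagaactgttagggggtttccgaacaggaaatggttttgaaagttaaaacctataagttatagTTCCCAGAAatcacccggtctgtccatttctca
Slpi, chr2:164356508-164356757, minus strand: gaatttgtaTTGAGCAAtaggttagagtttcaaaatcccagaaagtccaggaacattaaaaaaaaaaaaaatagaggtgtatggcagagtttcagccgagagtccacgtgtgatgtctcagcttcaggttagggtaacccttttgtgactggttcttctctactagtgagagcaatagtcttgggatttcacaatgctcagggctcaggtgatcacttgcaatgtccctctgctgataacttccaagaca
Each of these motifs is common: 7.02%, 17.6% and 9.56% of 32851 promoter stretches of the same length held the STAT-type, NF-kB-type and C/EBP-type letters. Members without a call held them too. Serpinb2, which did not pass, held STAT-type and C/EBP-type matches. Stfa1 held an NF-kB-type match with the same letters as 1 of those in Serpina3n, and a C/EBP-type match. Whether Stfa1 itself was measured is uncertain, as given below. Wfdc2, Stfa2 and Stfa3 held none of these types. A match describes letters, not a bound site. Aligned to each other, the 2 clade A3 serpin stretches had 46.2% identical positions, within the 44.0% to 51.1% of pairs from different families.

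In the stefin genes, capitals mark the longest run shared by the Stfa1, Stfa2 and Stfa3 promoters, which was 15 bases long.
Stfa1, chr16:36276898-36277147, plus strand: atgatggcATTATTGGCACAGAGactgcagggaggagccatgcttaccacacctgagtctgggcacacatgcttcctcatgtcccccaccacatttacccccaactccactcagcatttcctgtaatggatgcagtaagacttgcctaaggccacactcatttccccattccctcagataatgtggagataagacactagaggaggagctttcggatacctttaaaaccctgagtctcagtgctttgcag
Stfa2, chr16:36408364-36408613, minus strand: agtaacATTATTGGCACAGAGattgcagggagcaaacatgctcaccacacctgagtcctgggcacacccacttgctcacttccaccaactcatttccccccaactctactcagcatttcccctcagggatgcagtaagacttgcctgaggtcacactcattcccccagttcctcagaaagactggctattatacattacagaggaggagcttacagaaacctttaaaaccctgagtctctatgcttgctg
Stfa3, chr16:36455393-36455642, minus strand: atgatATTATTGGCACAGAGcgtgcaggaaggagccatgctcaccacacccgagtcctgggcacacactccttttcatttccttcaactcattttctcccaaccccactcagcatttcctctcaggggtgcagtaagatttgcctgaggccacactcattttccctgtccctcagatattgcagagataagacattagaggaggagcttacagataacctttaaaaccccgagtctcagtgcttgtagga
The run occurred in 5 of 32851 promoter stretches, which belonged to Stfa1, Stfa2, Stfa3, Stfa2l1 and Cstdc5. The stefin stretches were alike over their whole length, with 80.2% to 83.5% identity between Stfa1, Stfa2 and Stfa3, and 89.4% between Stfa2 and Stfa2l1. No probe sequences were compared. All 3 probes that the array names Stfa1 carry a transcript that RefSeq now assigns to Cstdc6, a neighbouring stefin. By the array's coordinates they lie on the minus strand, while the Stfa1 promoter printed above is on the plus strand. Their values are therefore given as those of probes labelled Stfa1, and the gene behind them is uncertain.

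**Figure D1:**
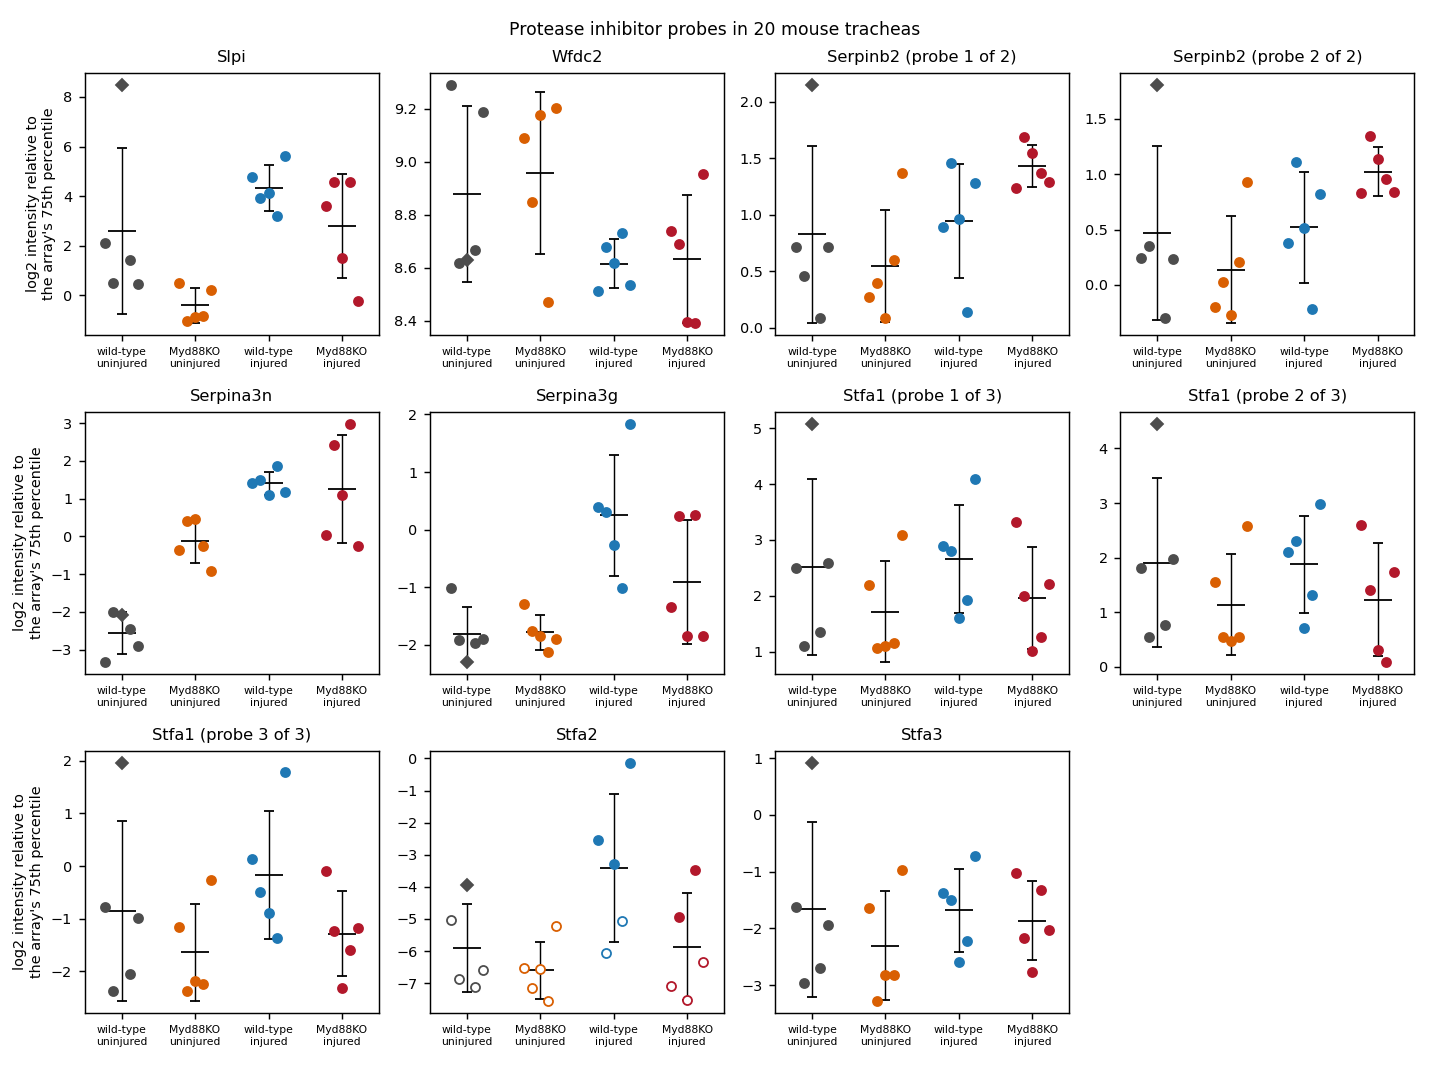
Log2 intensity relative to the 75th percentile of each array, 1 point per array, for 11 probes in 4 groups of 5 tracheas, with the group mean and SD as bars. Open points were not well above background, and the diamond is uninjured wild-type replicate 3, which lies at 8.48 for Slpi. Serpina3n separates the uninjured genotypes, and its SD is 1.43 in injured Myd88KO and 0.30 in injured wild-type tracheas. Serpina3g, Slpi and Stfa2 spread widely among injured Myd88KO tracheas, with SDs of 1.07, 2.11 and 1.66. Serpina3g and Stfa2 also spread widely in injured wild-type tracheas (SD 1.05 and 2.31), and Slpi in uninjured wild-type ones (SD 3.36).

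Injury of wild-type tracheas asks which inhibitors change while the epithelium is being rebuilt. Here 2 of 10 probes rose and none fell, at an adjusted p under 0.01 by limma with Benjamini-Hochberg adjustment over all tested probes, and both were clade A3 serpins. Over all tested probes 3.24% rose and 5.26% changed in either direction. The median log2 difference of the 10 probes was 0.13, and that of all tested probes was 0.

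Serpina3n had the clearest response. Its probe read -3.32, -2.0, -2.10, -2.45 and -2.91 in the 5 uninjured wild-type tracheas and 1.41, 1.49, 1.09, 1.85 and 1.17 in the 5 injured ones. The groups did not overlap, as for 7.89% of all tested probes in that direction. The log2 difference was 3.96 ± 0.49 (SE), a 15.6-fold rise, with an adjusted p of 0.000116 by limma, and the injured array was higher on 5 of 5 slides, by 3.19 to 4.73. This rise was 3.66 among the slides of the first scan day and 4.41 among those of the second, and was called in every fit that left out 1 array.

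Serpina3n values of the uninjured genotypes did not overlap either. Uninjured Myd88KO tracheas read -0.37, 0.40, 0.47, -0.24 and -0.92, all above the 5 uninjured wild-type tracheas, and 1.71% of all tested probes separated the groups that way. The log2 difference was 2.43 ± 0.49 (SE), or 5.37-fold, and its limma adjusted p of 0.0185 missed the threshold of 0.01. No member passed between uninjured genotypes with limma, where 0.384% of all tested probes did, and 2 of 10 members had an unadjusted p under 0.05, as had 5.59% of all tested probes. Each slide held 1 array of every group, all with the same replicate number. With slide in the model the limma adjusted p was 0.00367, and with scan day in its place it was 0.000919. Within slides the Myd88KO array was higher by 1.99 to 2.95, and the difference was 2.39 and 2.47 within the 2 scan days. Leaving out 1 array at a time gave limma adjusted p-values of 0.0184 to 0.0756, so the difference was of like size throughout while the call depended on the fit. Serpina3n also read lower on the second scan day by 1.06 (limma adjusted p = 0.00445), in a comparison in which 21.1% of tested probes passed.

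Injured Myd88KO tracheas read 0.03, 2.43, 1.09, 2.98 and -0.25 for Serpina3n, so replicates 2 and 4 were above every injured wild-type trachea and replicates 1 and 5 within the uninjured Myd88KO range. The difference with injury was 1.39 ± 0.49 (SE) and did not pass (limma adjusted p = 0.123), although the injured array was higher on 5 of 5 slides. Leaving out 1 array at a time gave 0.96, without injured replicate 4 (limma adjusted p = 0.344), to 1.76, without injured replicate 5 (limma adjusted p = 0.019), and array weights gave 1.89 (limma adjusted p = 0.00428). Injured genotypes differed by -0.15 ± 0.49 (SE), with limma adjusted p = 0.934. The difference between the 2 injury responses was -2.57 ± 0.69 (SE), with an unadjusted p of 0.00138 and a limma adjusted p of 0.391. No tested probe passed for that comparison with limma, where 10.4% had an unadjusted p under 0.05.

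Serpina3g, the leukocyte member of the same cluster, read -1.01, -1.92, -2.29, -1.96 and -1.90 in uninjured and 0.39, 0.30, -0.27, -1.01 and 1.83 in injured wild-type tracheas. The ranges touch, since injured replicate 4 and uninjured replicate 1 were at the same level to 2 decimals. The log2 difference was 2.07 ± 0.47 (SE), or 4.19-fold, with a limma adjusted p of 0.00717, and the injured array was higher on 5 of 5 slides. The call stands close to the threshold. With slide in the model the limma adjusted p was 0.0111, without uninjured replicate 3 it was 0.017, and over the fits that left out 1 array it ran from 0.00375 to 0.0195, with 7 of 10 such fits above 0.01.

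In Myd88KO tracheas Serpina3g read -1.29, -1.77, -1.86, -2.12 and -1.89 uninjured and -1.35, 0.23, -1.85, 0.25 and -1.85 after injury. Replicates 2 and 4 were within the injured wild-type range, and the other 3 injured arrays within the uninjured range. The difference was 0.87 ± 0.47 (SE), with limma adjusted p = 0.32, and no member passed in this limma comparison, in which 0.376% of all tested probes did. An unadjusted p under 0.05 was found for 4 of 10 members and for 19.5% of all tested probes. Uninjured genotypes differed by 0.03 (95% interval from -0.95 to 1.01) and injured ones by -1.16 ± 0.47 (SE), with limma adjusted p = 0.3.

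The same arrays stood out in neutrophil markers and were the lowest of their group in secretory epithelium markers. The mean of 12 tested neutrophil markers was 0.21 and 0.51 in injured Myd88KO replicates 2 and 4, -2.40, -2.30 and -3.26 in replicates 1, 3 and 5, and -0.05 to 2.01 in injured wild-type tracheas, against -3.41 to -0.67 in all uninjured tracheas. Between 5 and 13 of the 15 markers on the array were well above background in injured Myd88KO and 13 or 14 in injured wild-type tracheas. The summed intensity of these markers was 483 to 669 in injured wild-type, 373 to 693 in injured Myd88KO, 348 to 613 in uninjured wild-type and 441 to 722 in uninjured Myd88KO tracheas. Most of this sum was Ltf, which submucosal glands also make and which the gland list holds too. Without Ltf the sum of the other 14 was 18.3 to 272, 0.82 to 47.9, 3.44 to 34.4 and 0.875 to 3.06 in the same order of groups. The granule marker Ngp was well above background in none of the 20 arrays. Over the 20 arrays Serpina3g correlated with the neutrophil mean at r = 0.92 and with the mean of 12 macrophage markers at r = 0.95, and after removal of group means at 0.89 and 0.88. With the mean of 10 secretory epithelium markers Serpina3g correlated at r = -0.833 and Serpina3n at r = -0.795. After removal of group means these were -0.575 and -0.742. That secretory mean was 5.67 and 5.78 in injured Myd88KO replicates 2 and 4 and 7.09, 6.44 and 7.72 in replicates 1, 3 and 5. It ran from 5.15 to 6.18 in injured wild-type tracheas and from 7.575 to 8.22 in all uninjured ones. These are descriptions across arrays that share slides. The genes whose pattern was most like Serpina3g were Apob48r and 9130017C17Rik (r = 0.966 each) and Cd300lf (r = 0.959). The part of leukocyte number or of lost epithelium in the Serpina3g and Serpina3n results was not tested.

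**Figure D2:**
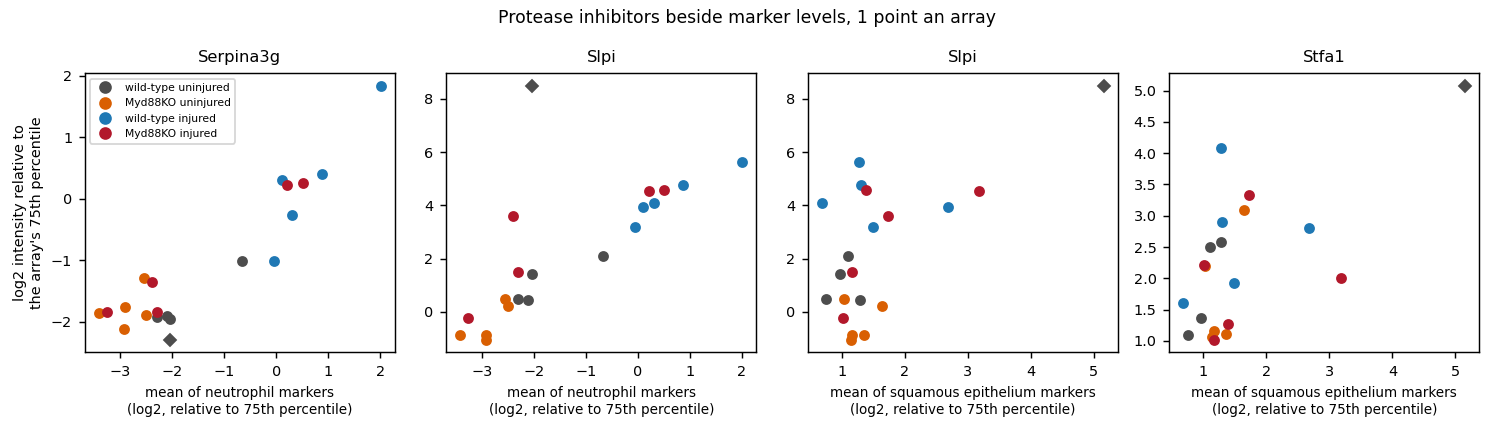
Log2 intensity of Serpina3g, Slpi and the brightest probe labelled Stfa1 on the vertical axis against the mean log2 level of neutrophil or squamous epithelium markers on the horizontal axis, 1 point per array and coloured by group. The diamond is uninjured wild-type replicate 3, alone at the right of the squamous plots at 5.16, and injured Myd88KO replicates 2 and 4 lie among injured wild-type arrays in the neutrophil plots.

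Serpina3n and Serpina3g lie 172 kb apart, by the coordinates in the files, within a cluster of clade A3 serpins on chromosome 12. The Serpina3n probe was at chr12:101908030-101908089 and the Serpina3g probe at chr12:101736157-101736216, and the build behind these positions is not stated. In this cluster 2 further probes, named LOC667984 and LOC238395, also rose in injured wild-type tracheas, by 2.35 (limma adjusted p = 0.000867) and 2.20 (limma adjusted p = 0.00117). LOC667984 followed Serpina3n over the 20 arrays (r = 0.92), second to Slc36a1 (r = 0.926) and ahead of Pfn1 (r = 0.885). Serpina3m differed by 0.84 and did not pass (limma adjusted p = 0.058). Serpina3c, in the same cluster, had group means from -3.23 to -2.65. Of 30 tested probes within 1 Mb of Serpina3n, none passed between uninjured genotypes in limma. Whether RNA of 1 copy binds the probe of another was not tested.

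**Figure D3:**
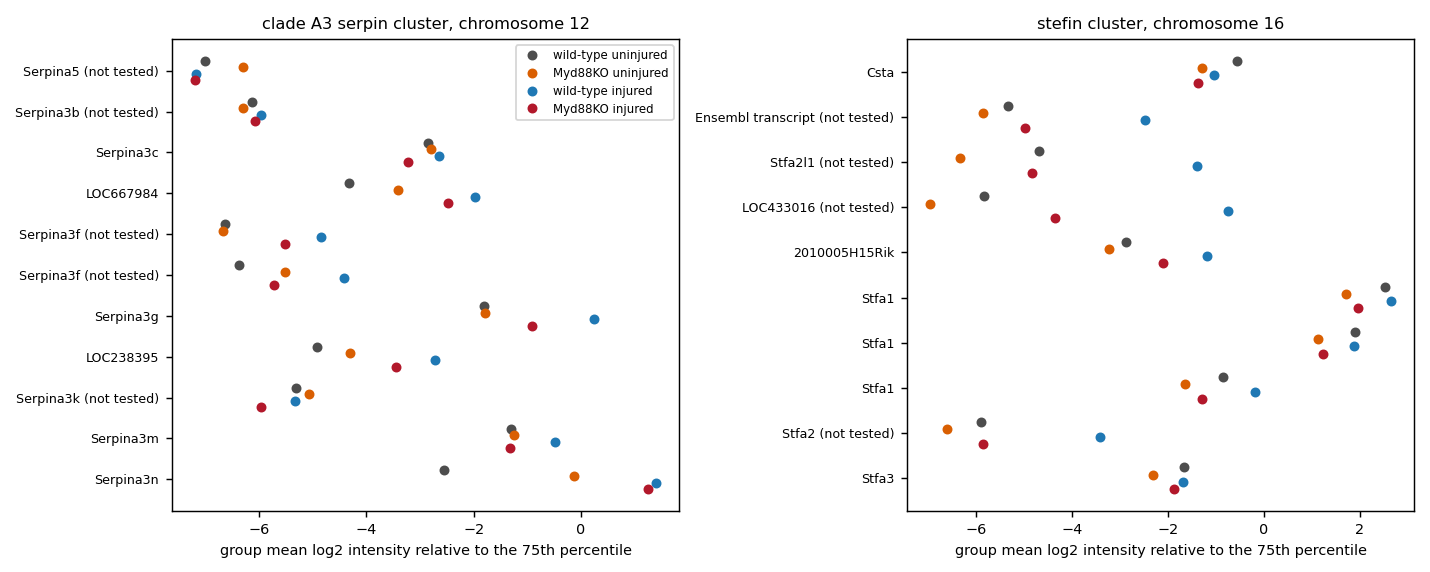
Group mean log2 intensity of each probe well above background on at least 1 array in the clade A3 serpin cluster on chromosome 12 (left) and the stefin cluster on chromosome 16 (right), ordered by position, 1 point per group. For Serpina3n the uninjured means are -2.56 in wild-type and -0.13 in Myd88KO, and for Stfa2l1 and LOC433016, which were not tested, the injured wild-type means are -1.40 and -0.74.

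Slpi, the mucosal inhibitor of neutrophil elastase, is the gene on which a single array weighs most. Its bright probe read 2.10, 0.49, 8.48, 1.44 and 0.45 in uninjured and 4.75, 3.92, 4.11, 3.19 and 5.62 in injured wild-type tracheas. Apart from the third uninjured array, every injured value lay above every uninjured one. With all arrays 7.89% of all tested probes separated the groups in that direction. The share without that array was not computed. With all arrays the log2 difference was 1.73 ± 1.20 (SE), with limma adjusted p = 0.383. Without that array it was 3.20 (limma adjusted p = 0.0133), still short of the threshold. After removal of group means Slpi correlated with the squamous marker mean at r = 0.79 and with the neutrophil mean at r = 0.48 over the 20 arrays. Without uninjured wild-type replicate 3 these were 0.37 and 0.86 over 19 arrays. For the macrophage marker mean the values were 0.41 with that array and 0.88 without it. The part of squamous tissue or of leukocyte number in the Slpi values was not tested.

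Uninjured Myd88KO tracheas read 0.48, -1.04, -0.87, -0.86 and 0.22 for Slpi, and injured ones 3.61, 4.55, 1.49, 4.57 and -0.24. Replicate 5 did not exceed the uninjured range, and replicates 2 and 4, the arrays with high neutrophil and macrophage markers, were the highest. The difference was 3.21 ± 1.20 (SE), or 9.26-fold, with limma adjusted p = 0.146, and 3.91 with array weights (limma adjusted p = 0.00854). Uninjured genotypes differed by -3.01, Myd88KO minus wild-type, with all arrays (limma adjusted p = 0.673) and by -1.54 without the third wild-type array (limma adjusted p = 1). The Myd88KO array was lower on 5 of 5 slides, with differences from -9.35 to -0.23 and a median of -1.62. The second Slpi probe, 5214 bases away by the coordinates in the files, was not well above background on any array and gives no fold.

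Wfdc2, a secreted product of airway epithelium, had the narrowest range of the tested members over the 20 arrays. It ranged from 8.62 to 9.29 and from 8.47 to 9.20 in uninjured wild-type and Myd88KO tracheas, and from 8.51 to 8.73 and from 8.39 to 8.95 after injury. Injury differences were -0.26 ± 0.17 (SE) in wild-type and -0.32 ± 0.17 (SE) in Myd88KO tracheas, with limma adjusted p-values of 0.354 and 0.315. The 95% intervals of these differences ran from -0.63 to 0.10 and from -0.69 to 0.04. With quantile scaling the differences were -0.096 and 0.04. The Wfdc2 probe read near the level of Ltf and Cbr2, whose group means were 8.86 to 9.13 and 8.80 to 9.19. In the series 1 spot was flagged as saturated. Whether the top of the intensity scale narrowed the range of Wfdc2 was not tested. Over the same samples Scgb1a1, the main secretory cell product, fell by 7.91 in wild-type (limma adjusted p = 1.05e-05) and by 6.24 in Myd88KO tracheas (limma adjusted p = 0.00069). In wild-type tracheas Scgb1a1 had the largest fall of the secretory list, and some others changed little. Uninjured and injured wild-type means were 8.91 and 8.80 for Scgb3a1, 8.05 and 7.83 for Reg3g, and 5.72 and 5.87 for Muc5b. Of 11 tested secretory epithelium probes, 6 fell in wild-type and 2 in Myd88KO tracheas. Over all tested probes 5.26% and 0.376% changed in either direction. Sod1 (r = 0.897) and Gsn (r = 0.885) were the named genes with patterns most like Wfdc2 over the 20 arrays.

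Both Serpinb2 probes gave the same picture and correlated at r = 0.99 over the 20 arrays. Serpinb5, another clade B serpin, was the gene most like the brighter probe (r = 0.803). The brighter read 0.72, 0.46, 2.14, 0.09 and 0.72 in uninjured and 0.90, 1.46, 0.96, 0.14 and 1.28 in injured wild-type tracheas, with a difference of 0.12 ± 0.32 (SE), or 0.45 without uninjured replicate 3 (limma adjusted p = 0.277). In Myd88KO tracheas it read 0.28, 0.40, 0.09, 0.60 and 1.37 uninjured and 1.24, 1.69, 1.55, 1.37 and 1.29 injured. The injured Myd88KO arrays were close together and all but 1 of the uninjured ones lay below them, yet the difference of 0.88 ± 0.32 (SE) did not pass (limma adjusted p = 0.137). Among injured tracheas the Myd88KO array was higher on 5 of 5 slides, by 0.02 to 1.23 (limma adjusted p = 0.566), and none of the members passed in this comparison, in which 0.38% of all tested probes did. An unadjusted p under 0.05 was found for 1 of 10 members and for 12.5% of all tested probes. Its neighbour Serpinb10 rose in injured Myd88KO tracheas by 1.62 (limma adjusted p = 0.00605), a call lost, with all others in that comparison, when only the groups compared were fitted or with the methods' one-way test. Serpinb12 fell in injured wild-type tracheas by 5.11 (limma adjusted p = 0.0009).

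**Figure D4:**
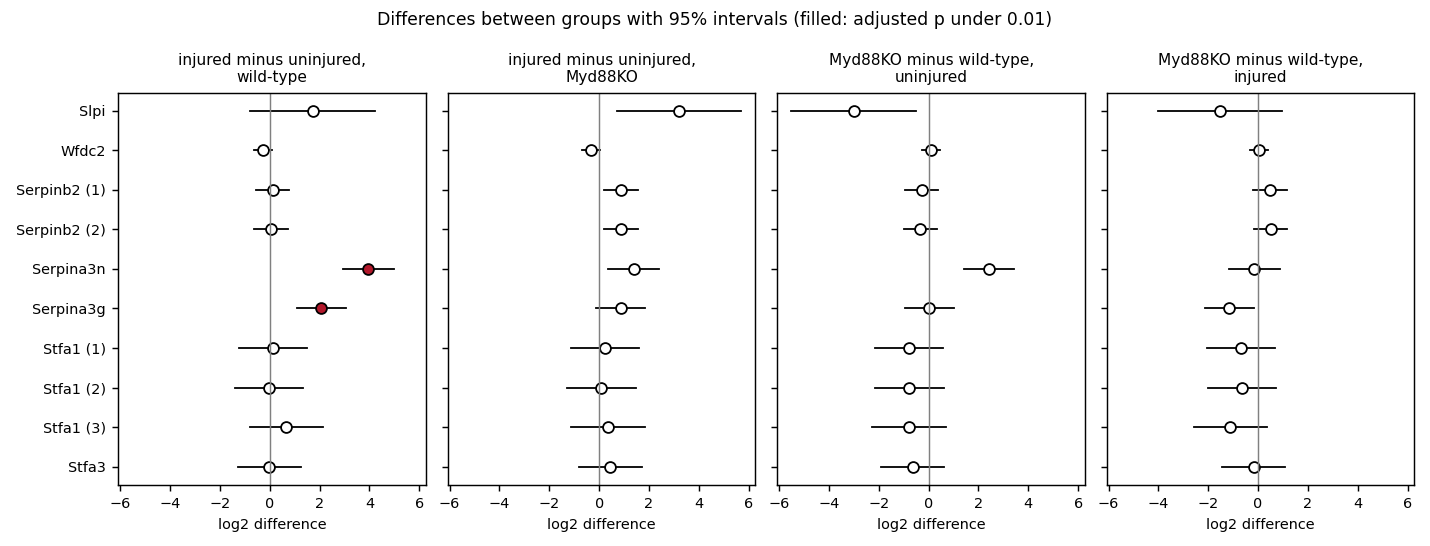
Log2 difference of each of the 10 tested probes in 4 comparisons, with 95% intervals from the limma fit. Filled points passed an adjusted p under 0.01, which were Serpina3n at 3.96 and Serpina3g at 2.07, both in injured wild-type tracheas.

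No probe named Stfa1 or Stfa3 passed in any comparison. The brightest probe labelled Stfa1 read 2.50, 1.1, 5.08, 1.36 and 2.59 in uninjured and 2.90, 2.80, 1.60, 1.93 and 4.08 in injured wild-type tracheas. It read 2.19, 1.06, 1.1, 1.15 and 3.08 in uninjured and 3.33, 2.00, 1.02, 1.26 and 2.21 in injured Myd88KO tracheas. All 4 groups overlap. The differences over its 4 comparisons ran from -0.80 to 0.25, each with an SE of 0.65, and no limma adjusted p was below 0.698. The 3 probes labelled Stfa1 correlated at r = 0.92 to 0.99.

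Uninjured wild-type replicate 3 was the highest of its group for each stefin probe, at 0.92 for Stfa3 against -2.97 to -1.62 in the other 4. Without this array the uninjured genotype difference of Stfa3 moved from -0.65 to 0, and those of the 3 probes labelled Stfa1 from between -0.80 and -0.77 to between -0.17 and -0.09. Serpinb2 moved likewise, from -0.28 to 0.05 for the brighter probe. A second pattern follows the slides: the probes labelled Stfa1 read higher on the second scan day by 1.05 to 1.12 (limma adjusted p = 0.0517 to 0.0632). In injury of wild-type tracheas the brightest of them differed by -0.40 within the first scan day, which holds replicate 3, and by 0.95 within the second. The part of squamous tissue in these values was not tested.

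Stfa2 was well above background on 6 of 20 arrays, which were injured wild-type replicates 1, 3 and 5, injured Myd88KO replicates 2 and 4, and uninjured wild-type replicate 3. It read -2.54, -3.30 and -0.14 in those injured wild-type arrays, -4.94 and -3.46 in the Myd88KO ones, and -3.95 in the uninjured one. It was well above background in none of the uninjured Myd88KO arrays, and no fold is given. In the same cluster, Stfa2l1 and LOC433016, not tested, were each well above background on 9 of 20 arrays. Their group means were -1.40 and -0.74 in injured and -4.68 and -5.84 in uninjured wild-type tracheas. In injured Myd88KO tracheas they were -4.84 and -4.355, and in uninjured ones -6.34 and -6.97. The lowest value well above background was -5.20 to -4.365 on uninjured wild-type arrays, so the uninjured means are near or below background and no fold is given. Among tested neighbours, Csta and 2010005H15Rik, stefin A genes now named Csta1 and Csta2, did not pass in injured wild-type tracheas (limma adjusted p = 0.713 and 0.159). Csta was the gene most like the brightest probe labelled Stfa1 over the 20 arrays (r = 0.907). Csta read 2.03 on uninjured wild-type replicate 3, beside group means of -1.37 to -0.57. This correlation was not computed without that array.

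The wider system of inhibitors and proteases gives the setting of these values. In injured wild-type tracheas 3.24% of all tested probes rose and 5.26% changed in either direction. Among other stefins and cystatins, 3 of 10 tested probes rose in injured wild-type tracheas, including both Cstb probes, which encode the general intracellular cathepsin inhibitor, by 0.86 and 0.84. Of 13 probes for cysteine cathepsins and the related lysosomal protease legumain, 6 rose, with Ctsz up by 1.18, Ctsb by 1.1, Ctsc by 1.66 and Lgmn, which encodes legumain, by 1.83. Their median difference was 0.73 beside 0 for all tested probes. In neutrophil and mast cell serine proteases, a class that includes targets of Slpi, none of 7 tested probes passed. They cover 5 of the 11 genes on the array, and enzyme levels were not measured. Of 11 tested probes listed for plasminogen activation and related factors 1 rose and 1 fell: Plau, the protease that Serpinb2 inhibits, rose by 1.51 (limma adjusted p = 0.00515), and F3, which encodes tissue factor, fell by 1.33 (limma adjusted p = 0.00698).

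Among the other clade A serpins 1 of 7 tested probes passed in injured wild-type tracheas, Serpina9, which fell by 2.64 (limma adjusted p = 0.000822). No probe of 7 for other whey acidic protein inhibitors passed. Acute phase genes included 3 of 21 probes that rose, Saa3 by 7.58, Saa1 by 3.67 and Saa2 by 2.03. Saa1 differed by -3.19 between injured genotypes, Myd88KO minus wild-type (limma adjusted p = 0.00823), and Lbp was higher in Myd88KO tracheas by 1.36 uninjured and 1.29 injured (limma adjusted p = 0.00326 and 0.0059). Of 32 interferon-stimulated probes none passed. Neutrophil markers rose for 6 of 15 probes and macrophage markers for 8 of 17 in injured wild-type tracheas, where 3.24% of all tested probes rose. In injured Myd88KO tracheas none of either passed with limma, where 0.376% of all tested probes did, and their median differences were 1.46 and 0.71 beside -0.07 for all tested probes.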

How the data were processed

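Total RNA of 20 whole tracheas, 5 for each of 4 groups, was labelled with Cy3 and hybridised to Agilent arrays of 45018 spots, 1639 of them controls. The authors deposited 1 Feature Extraction 9.5.1.1 file per array, whose processed signal is a background-corrected intensity, and a value table that holds the same intensity rounded. The genome build of the probe positions is not given in the sources used here.

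Spots marked as outliers (1960 values) were left out, spots of a probe were averaged, and log2 intensity minus the 75th percentile of each array over probes was computed from the deposited files. A probe was tested when well above background on at least 10 of 20 arrays. All 4 groups were fitted together with limma 3.58.1 in R 4.3.3, with Benjamini-Hochberg adjustment over 26063 probes and a threshold of 0.01. The number of arrays limits the precision. The fits were tested on simulated data.

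Each of 5 slides held 1 array of every group with 1 replicate number, and slides were scanned on 2 days. Same-numbered arrays deviated together (r over 0.1) in 5 of 5 pairs of uninjured groups, 4 of 5 for injury in either genotype and 3 of 5 pairs of injured groups. The slide as a block, scan day, array weights, quantile and normexp scaling, the value table, outlier spots kept, no filter, a stricter filter, the groups compared alone, the methods' one-way test and leaving out each array were tried, and the 75th percentile over spots was added after seeing the data. Members and lists were chosen with earlier results of these data known. The text names every member, in each list the called probes of lowest p, and the genes outside the set whose correlation with a member was highest over 20 arrays. Neighbours in the serpin and stefin clusters were chosen after their values were seen. Some genes that this rule would name are not reported here.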

Additional observations from a re-analysis of the deposited data

Results flagged for a closer look

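In uninjured wild-type tracheas Slpi was 8.48 on replicate 3, and the nearest of the other 4 arrays was 2.10. The gap was 0.795 of the range of the group, above the critical value of 0.71 in Dixon's test at 5 samples. It was the only one of 44 groups of member values examined that passed, where chance alone marks about 1 in 20. The same array held the high squamous epithelium markers described above, and their part in the Slpi value was not tested.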

How the results depend on the processing

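Over 50 differences, 1095 of 1180 comparisons with an alternative kept direction and side of the threshold, 11 lost and 6 gained the call, and 68 changed sign, in 19 differences that had not passed. Where a value moved, the cause was not tested. Of the 2 member calls in injured wild-type tracheas 1 was left (Serpina3n) with no filter on dim probes, the replicate block (slide), only the groups compared or the methods' one-way test, and 1 to 2 without 1 array. In injured Myd88KO tracheas array weights called 2 (Serpina3n and Slpi). Between uninjured genotypes 1 (Serpina3n) was called with the replicate block, scan day, array weights or only the groups compared. The 75th percentile over spots, chosen after seeing the data, changed no call of a member. The replicate block changed no other member call.

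Over all tested probes, 1372 calls in injured wild-type tracheas became 2106 with scan day and 2599 with array weights. The 98 in injured Myd88KO tracheas became 60 with no filter, 361 with scan day, 1901 with weights, and 0 with only the groups compared or the methods' test. The 100 between uninjured genotypes became 63 with probes above background on all arrays, 180 with weights and 46 with the methods' test, and the 99 between injured genotypes 63, 38 (only the groups compared) and 21 (methods' test). The difference in injury response had 0 calls, and 1, 2 and 3 with replicate block, scan day and weights. Without 1 array these counts ran from 665 to 1218, 6 (without injured Myd88KO replicate 2) to 1075 (without injured Myd88KO replicate 5), 73 to 84, 77 to 120, and 0 to 3.

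Signs changed with array weights for injury of wild-type in Stfa3 (0.36) and Stfa1 probe 2 (0.33), injury of Myd88KO in Stfa1 probe 2 (-0.15), uninjured genotypes in Serpina3g (-0.036), injured genotypes in Serpina3n (0.56) and Wfdc2 (-0.064), and the difference in injury response in Stfa1 probes 1 (-0.47) and 2 (-0.48). Wfdc2 gave 0.04 for injury of Myd88KO with quantile scaling, and for the difference in response 0.14 with quantile and 0.00 with normexp scaling. Without 1 array, injury of wild-type ran from -0.065 to 0.45 and -0.14 to 0.39 in Serpinb2 probes 1 and 2, -0.22 to 0.78 and -0.37 to 0.61 in Stfa1 probes 1 and 2, and -0.35 to 0.62 in Stfa3, the highest values being without uninjured wild-type replicate 3. Injury of Myd88KO ran from -0.10 to 0.59 and -0.25 to 0.45 in Stfa1 probes 1 and 2. Uninjured genotypes ran from -0.48 to 0.052 and -0.53 to 0.004 in Serpinb2 probes 1 and 2 and -0.093 to 0.23 in Serpina3g, and injured genotypes from -0.58 to 0.23 in Serpina3n, -0.061 to 0.079 in Wfdc2 and -0.41 to 0.058 in Stfa3. The difference in response ran from -0.53 to 0.46, -0.52 to 0.48 and -1.02 to 0.17 in Stfa1 probes 1 to 3, -0.18 to 0.004 in Wfdc2 and -0.18 to 0.80 in Stfa3. Dim probes such as Stfa2 have no fold, and 5 arrays a group limit small differences.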
